A study of Mus musculus with 4 samples.

Results

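Genes that make, use and break down ceramide, and the receptors of the sphingolipid messenger sphingosine 1-phosphate, were examined in liver RNA of mice on a methionine- and choline-deficient diet. The set of 41 genes was given by name from textbook pathway membership, with earlier results of these data known. Each gene was read from the array row annotated to it alone, with the highest mean signal over the 4 arrays. A single-gene row was found for 40 of the 41 among 22180 genes tested; Cers1 was not analysed here. The livers came from wild-type male C57BL/6J mice that were 6 weeks old when they were put on normal diet or on the deficient diet (MCD) for 20 weeks. Each diet was represented by 2 arrays. No allele, transgene or drug is named in the labels, and nothing in them says whether an array holds 1 animal or a pool, so p-values reflect only how far these samples differ, a spread that may be technical.

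Ceramide is built in the endoplasmic reticulum. Serine palmitoyltransferase joins serine to palmitoyl-CoA, the product is reduced, a ceramide synthase adds a fatty acid, and a desaturase completes the molecule. Ceramide is then given a head group to become sphingomyelin or a glycolipid, and sphingomyelin synthase takes its phosphocholine from phosphatidylcholine, the lipid that choline deficiency limits in liver. In the other direction sphingomyelinases and glycolipid hydrolases release ceramide, ceramidases split it to sphingosine, and sphingosine can be phosphorylated to sphingosine 1-phosphate (S1P), which acts on receptors at the cell surface or is degraded by a lyase.

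In MCD livers 7 of the 40 genes rose and 1 fell. The genes that rose were Sptlc2, Cers5 and Cerk among the synthesis genes, Smpd3, Asah1 and Acer3 among the breakdown genes, and Sgpp2 of S1P turnover. The S1P receptor gene S1pr1 fell. The changes were between 1.65-fold and 2.98-fold. A change here means an adjusted p under 0.05 from limma, a linear model with moderated variances fitted to all genes. By that rule 9.98% of all genes changed: 6.37% of all genes were higher and 3.62% lower in MCD livers. Calls were more frequent among bright genes: of genes with a mean signal above the median, 11.5% were higher and 6.61% lower, and of the 32 members above it 6 were higher and 1 lower. At an unadjusted p under 0.05 in limma, 15 of the 40 members were higher and 6 lower. Over all 22180 genes the counts were 3058 and 2303. The median difference (MCD minus normal diet) was 0.19 on the log2 scale over the 40 members and -0.03 over all genes. In 27 of the 40 members the diets' arrays were separate, 19 with both MCD arrays above and 8 with both below. Over all genes 54.2% were separate, 25.0% above and 29.2% below. Since whole liver was measured, a lower or higher number of cells of a type and a lower or higher amount of RNA per cell cannot be told apart in any of these values.

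**Figure D1:**
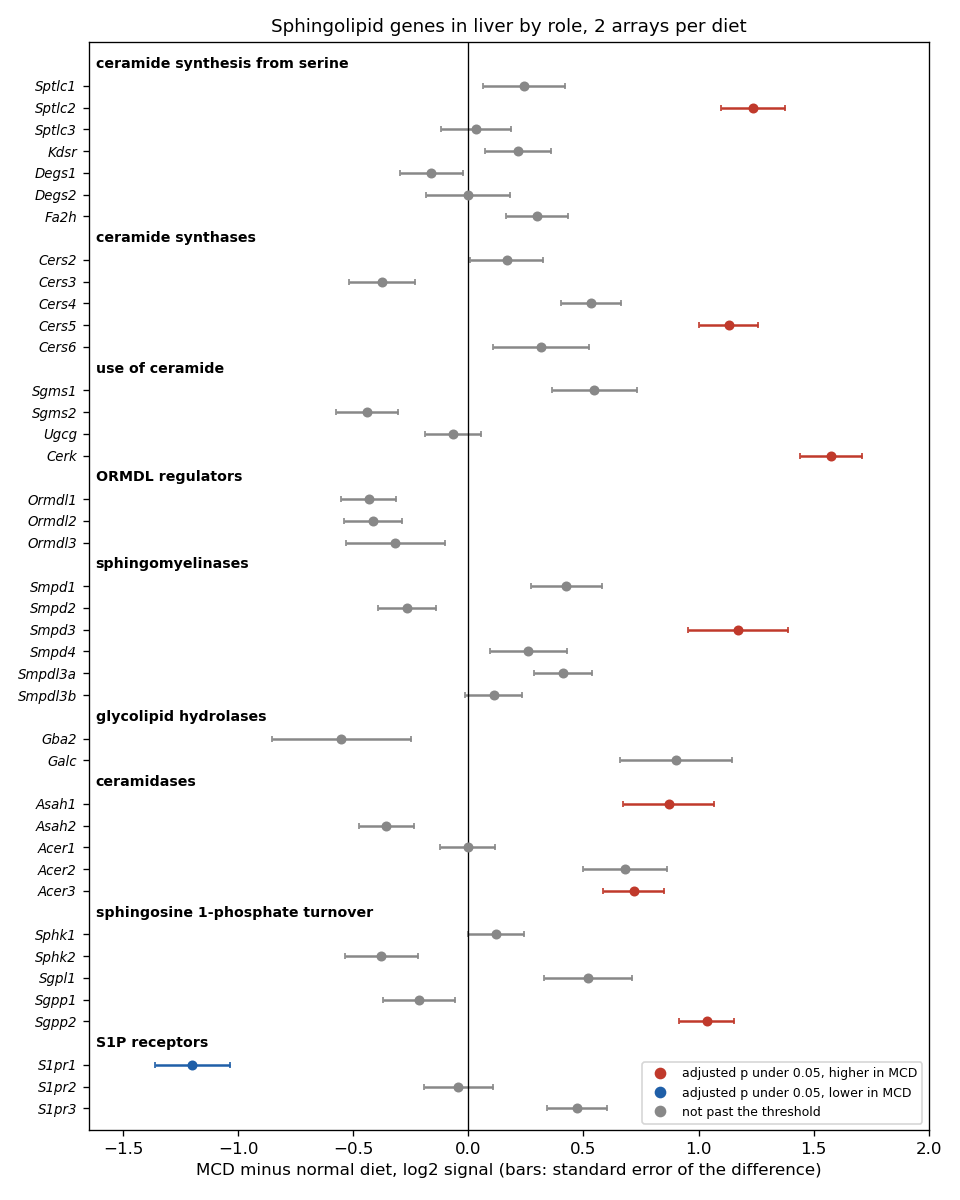
Difference in log2 signal between MCD and normal diet livers for the 40 measured genes, grouped by role (2 arrays per diet). Bars give limma's moderated standard error of the difference. The 7 red genes, led by Cerk at 1.58, lie to the right, the single blue gene S1pr1 lies at -1.20, and all 3 Ormdl genes lie to the left of 0 without passing the threshold.

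**Figure D2:**
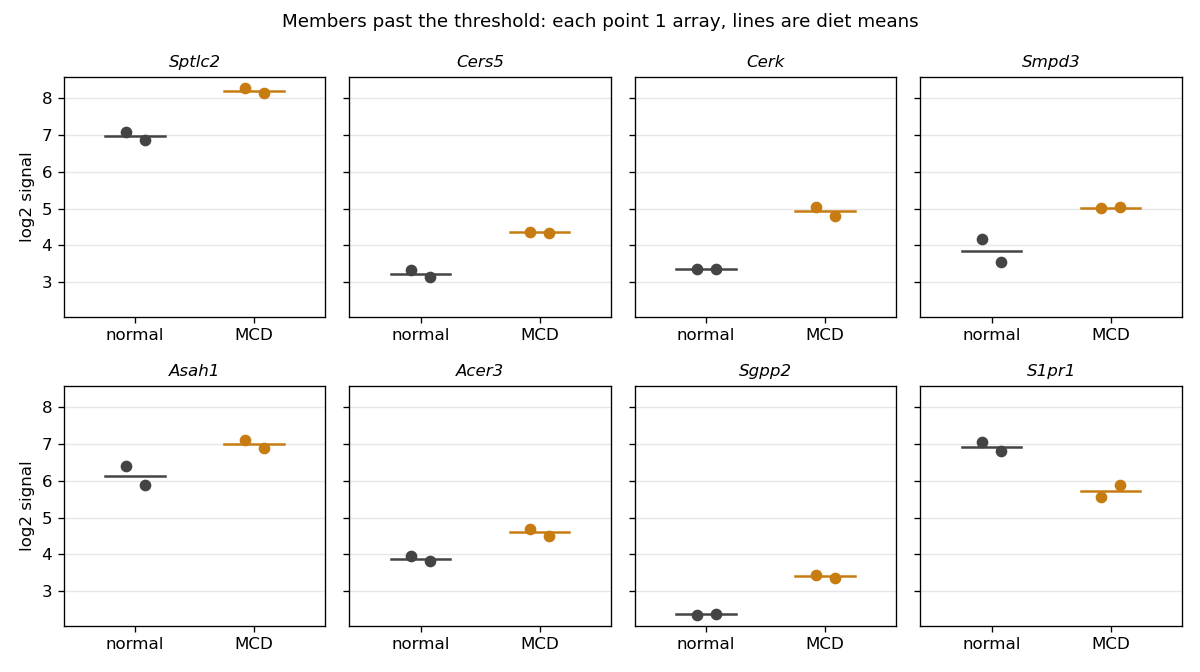
Log2 signal on each of the 4 arrays for the 8 genes past the threshold, with 1 point per array and a line at the mean of each diet. In each of the 8 panels the diets are separate, and the widest gap between arrays of one diet is that of Smpd3 on normal diet, from 3.54 to 4.17.

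As to the 4 arrays, their medians over all rows lay between 2.57 and 2.65 and their maxima between 12.07 and 12.13. Hepatocyte markers were checked against the labelled tissue: 8 of 8 lay above the median signal of all genes on normal diet, and Alb read 12.04 and 11.96 there and 11.99 and 11.93 on MCD diet. Of the 8, 1 fell and 0 rose (4 lower and 0 higher at an unadjusted p under 0.05 in limma), with a median difference of -0.30 and both MCD arrays below both normal diet arrays in 6. The marker that fell was the apolipoprotein gene Apoa1, by 0.50 ± 0.12 (limma adjusted p = 0.0493). Here and below ± gives limma's moderated standard error of the log2 difference, with 2 arrays a diet. Its variance is drawn toward that of all genes, so it is not the spread of a gene's own arrays alone. The intervals given below rest on it too. Among the 8 hepatocyte markers the widest difference was that of Ass1, a urea cycle enzyme gene, which did not pass (-1.61 ± 0.45, limma adjusted p = 0.0825). Macrophage markers rose in 7 of 8, cholangiocyte markers in 7 of 7 measured and stellate cell and fibroblast markers in 5 of 8, led by Gpnmb (7.33 ± 0.20), Bicc1 (3.20 ± 0.12) and Lum (2.91 ± 0.17). Endothelial markers fell in 2 of 8. Of 7 measured T, B and NK cell markers 0 passed limma's threshold, with 2 higher and 1 lower at an unadjusted p under 0.05. No background or detection values were analysed here, so a dim signal cannot be told from none, and the number of arrays limits the precision.

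Among the enzymes of the first steps of ceramide synthesis, Sptlc2 was the member that changed. It encodes a catalytic subunit of serine palmitoyltransferase, the rate-limiting enzyme of the pathway. The log2 signal of Sptlc2 was 7.09 and 6.86 on normal diet against 8.28 and 8.15 on MCD diet. Both MCD arrays lay more than 1 log2 unit above both normal diet arrays. The rise was 1.24 ± 0.14 (2.36-fold; limma adjusted p = 0.00491), and the call held under all 12 alternative settings. The partner subunit Sptlc1, with which it forms the enzyme, read 5.14 and 5.25 against 5.66 and 5.21, so that its arrays overlapped. Its difference of 0.24 ± 0.18 did not pass (95% interval -0.19 to 0.67). The alternative catalytic subunit Sptlc3 was dim on every array, from 2.19 to 2.52, with a difference of 0.03 ± 0.15. Within each array the ratio of Sptlc2 to Sptlc1 was higher on both MCD arrays, by 0.99 on the log2 scale on average (SD 0.24 on normal diet and 0.23 on MCD diet). With 2 arrays per diet an exact two-sided permutation test cannot go below p = 0.333, the value it gave for this ratio (0.354 adjusted over 17 ratios). These 17 ratios, 15 between members of the same role and 2 to the mean of a marker list, were chosen after the values were seen. Those named below are descriptions.

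The later enzymes of this branch did not pass. Kdsr, the reductase of the second step, read 6.89 and 7.07 on normal diet and 7.08 and 7.30 on MCD diet, a difference of 0.22 ± 0.14 with arrays that barely separated. Degs1, the desaturase that completes ceramide, overlapped between diets (6.70 and 6.57 against 6.58 and 6.37; -0.16 ± 0.14). Degs2, which makes phytoceramide, was dim and differed by less than 0.01. Fa2h, a fatty acid hydroxylase whose products enter ceramides, was dim as well and differed by 0.30 ± 0.13 (limma adjusted p = 0.251).

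Of the 5 measured ceramide synthases, which differ in the fatty acid they attach, 1 rose. Cers5, which prefers palmitoyl groups, read 3.33 and 3.13 on normal diet and 4.38 and 4.34 on MCD diet. The MCD arrays agreed closely and lay just over 1 log2 unit above the higher normal diet array. Its rise was 1.13 ± 0.13 (2.19-fold; limma adjusted p = 0.00517) and held under all 12 alternatives. Cers4 was next, at 3.96 and 4.02 against 4.62 and 4.42. Its arrays did not overlap, but the difference of 0.53 ± 0.13 missed the threshold (limma adjusted p = 0.0582; 0.056 to 0.224 over the alternatives). Cers6, the other synthase with a preference for palmitoyl groups, overlapped (5.96 and 6.36 against 6.24 and 6.70; 0.31 ± 0.21).

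Cers2, which makes the very long-chain ceramides typical of liver, read 8.65 and 8.55 on normal diet and 8.95 and 8.59 on MCD diet. These arrays overlapped, and the difference was 0.17 ± 0.16 (95% interval -0.22 to 0.55). A second, dimmer row of Cers2 differed by 0.25. Cers3, a synthase known from skin and testis, was dim and lay lower on MCD diet (2.78 and 3.07 against 2.55 on both arrays; -0.38 ± 0.14, limma adjusted p = 0.177). The ratio of Cers5 to Cers2 within arrays was 0.97 higher on MCD diet and that to Cers6 was 0.82 higher, with both MCD arrays above both normal diet arrays in each case (exact two-sided permutation p = 0.333, the smallest possible).

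Promoters are shown for Sptlc2 and Cers5, the genes of ceramide assembly that rose, 250 bases upstream of the RefSeq start (GRCm38.p6, 5′ to 3′ on the gene's strand). Capitals mark the GC box GGGCGG, the CCAAT box CCAAT and the E-box CACGTG, searched on both strands; no marked motif overlaps another.
Sptlc2, chr12:87388356-87388605, minus strand: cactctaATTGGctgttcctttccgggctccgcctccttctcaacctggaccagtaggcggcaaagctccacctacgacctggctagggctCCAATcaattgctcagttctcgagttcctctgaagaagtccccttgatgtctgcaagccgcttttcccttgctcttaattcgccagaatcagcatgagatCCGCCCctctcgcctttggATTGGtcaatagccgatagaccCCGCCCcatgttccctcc
Cers5, chr15:99772516-99772765, minus strand: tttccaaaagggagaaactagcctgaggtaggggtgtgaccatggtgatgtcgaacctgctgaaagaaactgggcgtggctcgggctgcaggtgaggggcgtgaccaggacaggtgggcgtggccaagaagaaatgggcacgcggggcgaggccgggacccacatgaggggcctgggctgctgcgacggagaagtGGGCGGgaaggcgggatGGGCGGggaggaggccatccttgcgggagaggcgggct
The Sptlc2 window holds 2 GC boxes and 3 CCAAT boxes, and the Cers5 window holds 2 GC boxes. Promoters were found in the RefSeq table for 35 of the 40 members, as 50 windows in all. A GC box was present in 52.0% of these windows, in 32.7% of all 32851 windows and in 42.6% of the 21262 windows of protein-coding genes. The CCAAT box was in 30.0%, 33.9% and 35.4%, and the E-box in 16.0%, 6.02% and 6.63%. For the members that E-box share is 8 of 50 windows, in 7 of 35 genes, some of which have several windows. The members' windows were rich in G and C, with a median of 61.0% against 55.6% for protein-coding genes. Such matches are letters in a window and not shown binding sites.

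Once made, ceramide goes to several products, and the enzyme of a minor branch changed most. Cerk, the kinase that forms ceramide 1-phosphate, had the largest difference of all 40 genes. Its normal diet arrays read 3.36 and 3.35 and its MCD arrays 5.06 and 4.81. The gap between the diets exceeded 1.4 log2 units at its narrowest, against 0.25 between the MCD arrays. The rise of 1.58 ± 0.14 (2.98-fold; limma adjusted p = 0.00223) held under all 12 alternatives. Ugcg, which makes glucosylceramide, overlapped and stayed within a narrow range, at 5.69 and 5.67 against 5.55 and 5.68 (-0.07 ± 0.12, 95% interval -0.36 to 0.23). The Cerk to Ugcg ratio was 1.64 higher on MCD diet.

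The sphingomyelin synthases differed in opposite directions without either passing. Sgms1, the Golgi enzyme, read 4.20 and 4.68 on normal diet and 4.94 and 5.03 on MCD diet, a difference of 0.55 ± 0.18 (limma adjusted p = 0.135). Sgms2, which also works at the plasma membrane, read 8.04 and 7.81 against 7.44 and 7.53, a difference of -0.44 ± 0.13 (limma adjusted p = 0.106). For neither gene did the diets overlap. Their ratio, Sgms1 to Sgms2, was 0.99 higher on MCD diet, with an SD of 0.50 between the normal diet arrays and of 0.01 between the MCD arrays. Over all 16 measured synthesis genes 3 rose and 0 fell (5 higher and 2 lower at an unadjusted p under 0.05 in limma), and their median difference was 0.23. These 16 include the 4 genes that use ceramide, of which 1, Cerk, rose.

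The ORMDL proteins bind serine palmitoyltransferase and restrain it when ceramide is plentiful. All 3 genes lay lower on MCD diet, and 0 passed limma's threshold, with 2 lower at an unadjusted p under 0.05. Ormdl1 read 5.43 and 5.53 on normal diet and 5.07 and 5.03 on MCD diet. Its arrays did not overlap, and the difference was -0.43 ± 0.12 (limma adjusted p = 0.0809). Under quantile normalization Ormdl1 passed, at -0.55 (limma adjusted p = 0.0393). Ormdl2 read 7.85 and 7.70 against 7.30 and 7.42, again without overlap (-0.42 ± 0.13, limma adjusted p = 0.106). Ormdl3 was uneven on normal diet, at 3.44 and 4.05, and overlapped with the MCD arrays at 3.50 and 3.35 (-0.32 ± 0.21). The sign of the difference was negative for each of the 3 genes under all 12 alternatives, although for Ormdl3 it shrank to -0.01 without normal diet replicate 2. The genes' proteins are close relatives, and whether their array rows share signal was not tested.

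**Figure D3:**
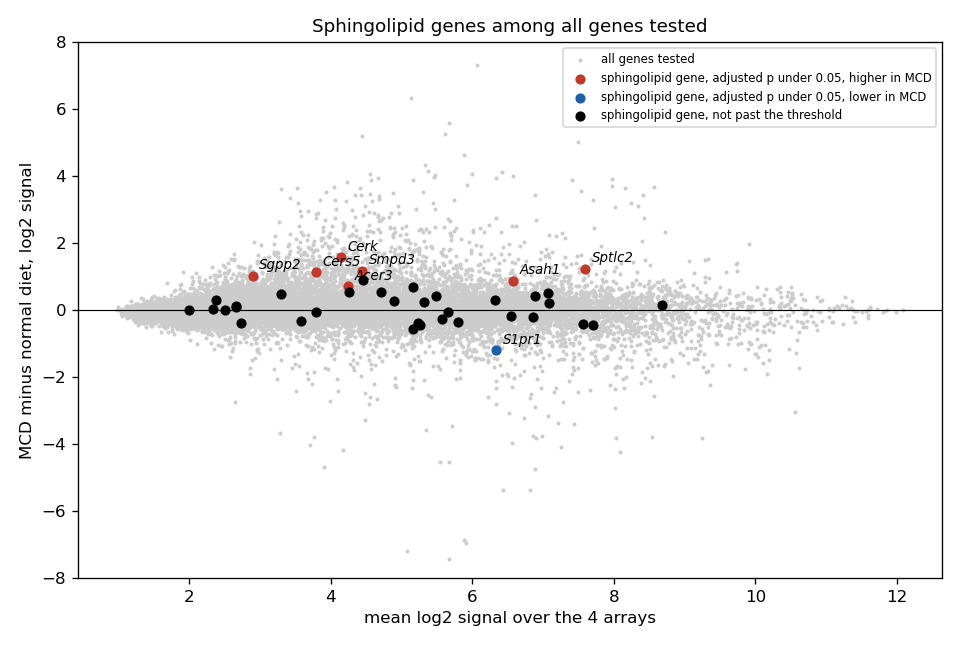
Difference in log2 signal between diets against the mean log2 signal over the 4 arrays for all 22180 genes (grey) and the 40 sphingolipid genes (coloured). The members lie between -1.20 and 1.58, inside the range of all genes from -7.42 to 7.33, and the 8 called members span signals from dim (Sgpp2) to bright (Sptlc2).

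Sphingomyelinases release ceramide from sphingomyelin, and of 6 genes 1 rose. Smpd3, a neutral sphingomyelinase of membranes, read 4.17 and 3.54 on normal diet and 5.01 and 5.05 on MCD diet. Every MCD value lay above every normal diet value, although the normal diet arrays were 0.63 apart. The rise was 1.17 ± 0.22 (2.25-fold; limma adjusted p = 0.0246). The call was lost without MCD replicate 1 (1.19, limma adjusted p = 0.101) and without MCD replicate 2 (1.16, limma adjusted p = 0.0908).

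The lysosomal acid sphingomyelinase Smpd1 read 6.63 and 6.72 against 7.27 and 6.92, without overlap, and missed the threshold (0.43 ± 0.16, limma adjusted p = 0.161). Its dimmer second row differed by 0.24. Smpdl3a, a secreted phosphodiesterase related to it, read 5.20 and 5.36 against 5.68 and 5.70 (0.41 ± 0.13, limma adjusted p = 0.107), whereas a second row of that gene differed by 0.03. The remaining members were Smpd4 (0.26 ± 0.17, overlapping), Smpdl3b (0.11 ± 0.12, dim) and the neutral sphingomyelinase gene Smpd2, which lay lower on both MCD arrays (5.63 and 5.79 against 5.42 and 5.47; -0.27 ± 0.13). The ratio of Smpd3 to Smpd2 was 1.44 higher on MCD diet, and that to Smpd1 was 0.75 higher.

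For the glycolipid hydrolases no change was called, with 1 of 2 higher at an unadjusted p under 0.05 in limma. Galc, the lysosomal galactosylceramidase, read 3.996 and 4.007 on normal diet and 5.27 and 4.53 on MCD diet. The normal diet arrays were almost equal and the MCD arrays 0.74 apart, and the difference of 0.90 ± 0.24 missed the threshold (limma adjusted p = 0.0745). Without MCD replicate 2 it passed, at 1.27 (limma adjusted p = 0.0144). Gba2, the glucosylceramidase outside the lysosome, was uneven on normal diet (5.03 and 5.86) and overlapped with MCD diet (4.65 and 5.14; -0.55 ± 0.30).

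Ceramidases cleave ceramide at the acidity their name gives, and 2 of the 5 genes rose. Asah1, the acid ceramidase of the lysosome, read 6.40 and 5.88 on normal diet and 7.13 and 6.89 on MCD diet. Its rise of 0.87 ± 0.20 (1.83-fold) was close to the threshold (limma adjusted p = 0.0477). That call was lost under median centring (limma adjusted p = 0.0627), without normal diet replicate 2 (0.61, limma adjusted p = 0.153), without MCD replicate 1 (0.75, limma adjusted p = 0.198) and without MCD replicate 2 (0.99, limma adjusted p = 0.0945). Acer3, an alkaline ceramidase, read 3.95 and 3.82 against 4.69 and 4.51. It rose by 0.72 ± 0.13 (1.65-fold; limma adjusted p = 0.0246), a call that was lost under quantile normalization (limma adjusted p = 0.0507) and when any 1 of the 4 arrays was left out (limma adjusted p from 0.0534 to 0.120).

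Acer2, the alkaline ceramidase of the Golgi, read 4.62 and 5.04 on normal diet and 5.64 and 5.37 on MCD diet (0.68 ± 0.18, limma adjusted p = 0.0756). The ratio of Acer3 to Acer2 overlapped between the diets, with a shift of 0.04. Asah2, the neutral ceramidase, lay the other way on both MCD arrays (5.97 and 5.98 against 5.67 and 5.57; -0.36 ± 0.12, limma adjusted p = 0.135). The Asah1 to Asah2 ratio was accordingly 1.23 higher on MCD diet, with both MCD arrays above both normal diet arrays. Acer1, known from skin, was near 2 on every array and differed by less than 0.01. Over all 13 breakdown genes 3 rose and 0 fell (7 higher and 1 lower at an unadjusted p under 0.05 in limma). Their median difference was 0.41, and it was 0.25 without MCD replicate 1 and 0.46 without MCD replicate 2. As given above, the calls of Smpd3, Asah1 and Acer3 were each lost when either MCD array was left out.

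Macrophages are rich in lysosomes, and 7 of their 8 markers rose, as given above; Adgre1 differed by 1.09 ± 0.29 and did not pass (limma adjusted p = 0.0748). The mean log2 signal of the list was 4.20 on both normal diet arrays, 7.65 on MCD replicate 1 and 7.06 on MCD replicate 2. Of the 13 breakdown genes 7 were higher on MCD replicate 1 than on MCD replicate 2, as were 15 of the 27 other members. The 7 were the lysosomal Galc (0.74), Smpd1 (0.35) and Asah1 (0.23), and Smpd4 (0.41), Acer2 (0.27), Acer3 (0.18) and Asah2 (0.10). The rest of the 13 were lower there, Gba2 most (-0.49). Over the 6 measured genes of lysosomal glycolipid breakdown outside the set, the mean was 7.07 on MCD replicate 1 and 7.04 on MCD replicate 2. Of those genes Gm2a and Neu1 were lower on MCD replicate 1, and Hexa, Psap, Gla and Arsa higher. The median of MCD replicate 1 minus MCD replicate 2 was 0.06 over the 40 members and -0.01 over all genes. Relative to the mean of the macrophage markers Asah1 was lower on both MCD arrays, with a shift of -2.29. The part of macrophages in the values of the lysosomal enzymes was not tested. The mean of the cholangiocyte markers went from 3.13 and 2.98 on normal diet to 4.98 and 4.87 on MCD diet, and that of the stellate cell and fibroblast markers from 5.26 and 5.04 to 6.49 and 6.59. The part of these cells in the rises of Sptlc2, Cers5, Cerk, Smpd3, Acer3 and Sgpp2 was not tested either.

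**Figure D4:**
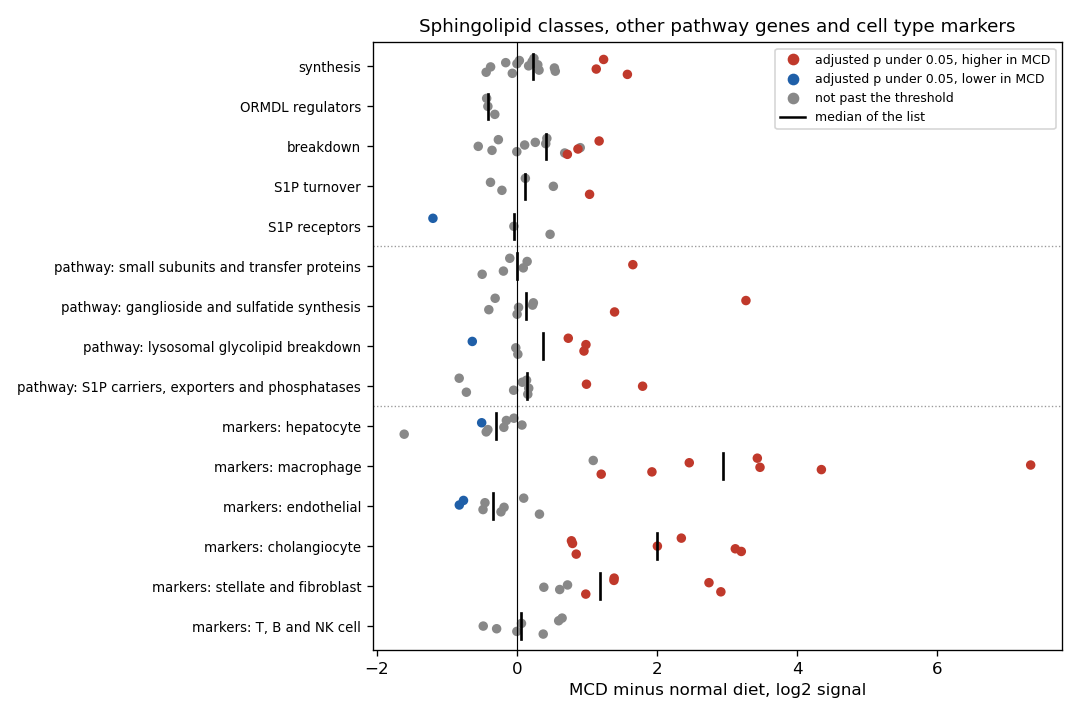
Difference in log2 signal between diets for each gene of the 5 sphingolipid classes (top), of 4 further pathway lists (middle) and of 6 cell type marker lists (bottom), with a bar at the median of each list. The medians of synthesis and breakdown genes, 0.23 and 0.41, lie well below those of the macrophage (2.94) and cholangiocyte (2.003) markers. The synthesis class includes the genes that use ceramide.

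Of the 5 enzymes that make or remove S1P, 1 rose. Sgpp2, a phosphatase that returns S1P to sphingosine, read 2.36 and 2.39 on normal diet and 3.45 and 3.37 on MCD diet. The arrays of one diet were 0.03 apart on normal diet and 0.08 on MCD diet. The rise was 1.04 ± 0.12 (2.05-fold; limma adjusted p = 0.00522) and held under all 12 alternatives. The normal diet signal was dim, below that of the median gene, so the size of the rise is uncertain. Its relative Sgpp1 overlapped (7.01 and 6.93 against 6.58 and 6.93; -0.22 ± 0.16), and a dimmer row of Sgpp1 differed by -0.20.

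Sgpl1, the lyase that degrades S1P for good, read 7.02 and 6.60 on normal diet and 7.49 and 7.17 on MCD diet, a difference of 0.52 ± 0.19 that did not pass (limma adjusted p = 0.165). Of the kinases, Sphk1 was dim (2.60 and 2.59 against 2.77 and 2.66; 0.12 ± 0.12). Sphk2 lay lower on both MCD arrays (5.55 and 5.29 against 5.18 and 4.90; -0.38 ± 0.16, limma adjusted p = 0.219).

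Of the 3 S1P receptors, S1pr1 fell. It couples S1P to barrier function in endothelium and to lymphocyte exit from lymphoid organs. S1pr1 read 7.05 and 6.82 on normal diet and 5.57 and 5.90 on MCD diet, with almost 1 log2 unit between the nearest arrays of the diets. The fall was 1.20 ± 0.16 (2.30-fold lower; limma adjusted p = 0.00891) and held under all 12 alternatives. S1pr2 overlapped (3.70 and 3.93 against 3.89 and 3.65; -0.04 ± 0.15). S1pr3, a receptor of stellate cells and vascular cells, lay the other way, at 3.16 and 2.98 against 3.50 and 3.58, and did not pass (0.47 ± 0.13, limma adjusted p = 0.0777). The ratio of S1pr1 to S1pr3 was 1.67 lower on MCD diet on the log2 scale, that is a shift of -1.67 with SDs of 0.03 and 0.17 (exact two-sided permutation p = 0.333, the smallest possible).

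Endothelial markers were set beside S1pr1. Their mean log2 signal was 6.49 and 6.32 on normal diet and 6.09 on both MCD arrays, and 2 of 8 fell, with Stab2 leading (-0.82 ± 0.15, limma adjusted p = 0.0248). The 8 differences ran from -0.82 to 0.32. Relative to the mean of the 8 markers S1pr1 was lower on both MCD arrays, with a shift of -0.88 (SD 0.04 on normal diet and 0.23 on MCD diet; exact two-sided permutation p = 0.333, the smallest possible). The part of endothelial cells in the fall of S1pr1 was not tested. Further receptor genes outside the set were S1pr4, dim on all arrays (-0.05 ± 0.13), and S1pr5, which read 3.99 and 4.42 against 3.34 and 3.62 (-0.72 ± 0.19, limma adjusted p = 0.0683).

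Other genes of the pathway were read in 4 lists. Of 6 measured small subunits and transfer proteins 1 rose, the glycolipid transfer protein gene Gltp, from 4.13 and 3.52 to 5.77 and 5.19 (1.65 ± 0.27, limma adjusted p = 0.0160). The ceramide transfer protein gene Cert1, which carries ceramide to sphingomyelin synthase, differed by 0.14 ± 0.12. Of 8 genes of ganglioside and sulfatide synthesis 2 rose, and B4galt6, a lactosylceramide synthase, had the largest difference of all pathway genes read here. B4galt6 read 3.27 and 2.64 on normal diet and 6.36 and 6.08 on MCD diet, a rise of 3.27 ± 0.23 (limma adjusted p = 0.00127). Its counterpart B4galt5 was slightly lower on both MCD arrays and did not pass (6.64 and 7.01 against 6.57 and 6.46; -0.31 ± 0.16). Ugt8a, which makes galactosylceramide, the substrate of Galc, was the other gene that rose (3.04 and 3.24 to 4.42 and 4.64; 1.39 ± 0.14, limma adjusted p = 0.00379).

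Among 6 measured genes of lysosomal glycolipid breakdown 3 rose and 1 fell. The gene that fell was Gm2a, from 8.77 and 8.94 to 8.15 and 8.28 (-0.64 ± 0.13, limma adjusted p = 0.0345). Neu1 (-0.02 ± 0.13) and Arsa (0.01 ± 0.15) did not pass. Psap, the precursor of the saposins that present lipids to Galc and Asah1, rose from 8.82 and 8.76 to 9.80 and 9.75 (0.98 ± 0.12, limma adjusted p = 0.00580). Of 9 S1P carriers, exporters, phosphatases and related genes 2 rose and 0 fell (2 higher and 2 lower at an unadjusted p under 0.05 in limma). The lipid phosphatase gene Plpp2 rose from 5.24 and 4.94 to 7.09 and 6.67 (1.79 ± 0.19, limma adjusted p = 0.00395). Apom, the apolipoprotein that carries S1P in plasma and is made by hepatocytes, read 7.61 and 6.98 against 6.50 and 6.45 and did not pass (-0.82 ± 0.21, limma adjusted p = 0.0683). The exporter gene Spns2 overlapped between diets (0.14 ± 0.19).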

How the data were processed

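Total RNA from liver was hybridised to Mouse Gene 2.1 ST array strips, per the labels' protocols. The authors deposited log2 signals, for which the submitters' processing notes name Transcriptome Analysis Console. Its version and the steps from scan to value (summarization, background, normalization) are not given in the sources here. No source states the log base; the range of the values is that of log2 summaries, and every fold rests on this reading. Columns left unused: 0.

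Of 34472 rows, 23521 named 1 gene in GEO's platform annotation, 1814 several and 9137 none. Only the first were used, 1 row per gene by the highest mean over the 4 arrays, which gave 22180 genes. In RefSeq's gene table (GRCm38.p6), 23328 rows were found and 0 symbols were updated. Diets were compared with limma 3.58.1 in R 4.3.3 over all genes (two-sided, Benjamini-Hochberg, threshold 0.05, no block, no filter). The test was tested on simulated data drawn from the variance model that limma assumes, which does not check that model on these arrays. The members and lists were chosen with earlier results of these data known. Values are given for every member past the threshold, the largest difference of a group with none, and the called gene with the largest difference in each further pathway or marker list. Further genes, called or not, were named without a fixed rule. Pairs of members of the same role were chosen after their values were seen. Same-numbered arrays were not taken as paired, since the correlation of their deviations over genes was 0.05 and the labels name no shared litter or day.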

Additional observations from a re-analysis of the deposited data

How the results depend on the processing

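Over the 12 alternatives, the calls of Sptlc2, Cers5, Cerk, Sgpp2 and S1pr1 held throughout. Those of Smpd3, Asah1 and Acer3 did not, as given above. No member reversed its direction where it was called. Averaging or testing all rows of a gene could not alter the difference of a called member. Only Cers2, Sgpp1, Smpd1 and Smpdl3a have several rows, and none of them was called. Requiring at least 2-fold change with an unadjusted p under 0.05 gave 780 higher and 375 lower genes, and 1 breakdown gene higher, since Asah1 and Acer3 changed by less. Under quantile normalization 2 members were lower, the second being Ormdl1; the cause was not tested. Averaging all rows of a gene, the median of the breakdown genes was 0.26, as Smpdl3a then differed by 0.22. Leaving out each array in turn gave 688 to 1011 genes higher and 362 to 482 lower, 4 to 6 members higher, 0 to 2 breakdown genes higher, and a breakdown median of 0.25 to 0.47; these fits have fewer arrays. Acer1 had no value without the dimmest 25% of genes. With the replicate number as a block, 1288 genes were higher and 662 lower, and 7 members were higher and 1 lower; no call among the members changed. Median centring moved the median of all genes by -0.07. The limits are 2 arrays per diet, an unstated log base and no measure of signal over background.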

Other observations

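St3gal5 and Gba2, like several other genes of this pathway, varied more between the normal diet arrays than between the diets. St3gal5, which makes the ganglioside GM3 from lactosylceramide, read 7.61 and 9.15 on normal diet and 8.42 and 8.81 on MCD diet, a gap of 1.53 on normal diet against a difference between diets of 0.23 ± 0.47. Gba2 read 5.03 and 5.86 on normal diet, a gap of 0.84 against a difference of -0.55 ± 0.30. Both genes were singled out after their values were seen.

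Cers3 and the ganglioside synthase gene St8sia1 carried the same value on both MCD arrays to every digit given (2.55 and 1.59), at dim signals.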
